A study of Homo sapiens with 8 samples.

Results

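The 32 genes described here act in the G2 phase of the cell cycle and in mitosis, and were followed in 8 libraries of xenograft tumours. They were taken by symbol from a list of 32 names, after the Ensembl identifiers of the count table were matched to GENCODE release 29. All 32 were found among 58302 genes and all 32 were among the 18973 genes tested. The tumours grew in mice and arose from T24, a long-established line of human bladder cancer cells. In the labels 4 libraries are controls and 4 are from T24 cells with DDR1 over expression. DDR1 is a collagen-activated receptor tyrosine kinase. The mouse strain, the age of the animals, the vector and whether the cells were 1 clone were not given here. Nothing in the labels says that libraries came from separate animals, so a p-value here speaks of the spread among libraries, part of which may be technical. DDR1 replicates 2, 3 and 4 share a title prefix, and so do control replicates 3 and 4. The library labelled DDR1 replicate 1 is the only DDR1 library with its prefix, and what a prefix stands for is not stated. Below, n counts libraries, and values given for control or DDR1 tumours are those of libraries. Every DDR1 title names lane 8, 2 control titles name lane 7 and the other 2 controls name no lane, so lane and group cannot be told apart.

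G2 is the interval in which a cell with replicated DNA prepares to divide, and mitosis is the division of its chromosomes. Cyclins A and B switch on the kinase CDK1, mitotic kinases and kinesins build the spindle, a checkpoint at the kinetochores delays the parting of sister chromatids until all are attached, and the anaphase-promoting complex (APC/C) then ends mitosis by degrading securin and cyclin B. Transcripts of most of these genes are low in resting cells and are made together late in the cycle, under MYBL2, FOXM1 and the MuvB complex, so that in a tumour sample their level is commonly read as a measure of dividing cells. In bulk RNA a smaller number of dividing cells and less RNA per cell cannot be told apart.

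Promoters of such genes are known for 2 short elements, the CCAAT box and the cell cycle genes homology region (CHR), and they are shown because the members moved together across libraries. RefSeq windows on GRCh38.p14, from 250 bases before to 50 bases after the annotated start, were found for 26 of the 32 members, and AURKA, TTK, FOXM1, UBE2C, BIRC5 and TPX2 had no entry. For 22 of the 26 the bases after the start were found within a GENCODE transcript of the gene. For CDC20, PTTG1, KIF11 and MKI67 they were not, so these starts may differ from the annotation used for the counts. The letters searched were TTTGAA for the CHR core and CCAAT for the CCAAT box, on both strands, and matches of either motif may share bases. A CHR core was in 14 of the 26 windows (53.8%) and in 15.4% of all 27305 promoter windows of the same length. At least 1 CCAAT box was in 20 windows (76.9%, against 35.7% of all), and at least 2 were in 14 (53.8%, against 11.3%). Both motifs were in 13 of the 26 windows, against 6.1% of all. The 150 bases before the start are printed for 6 members on the plus strand, from upstream to downstream, with matches in capitals. CCNB2 and PLK1 have matches of both motifs, and CCNB1 and KIF20A have CCAAT matches without TTTGAA. HMMR has the most matches over its whole window, and CDC25B has none. Other spellings of the CHR were not searched, so a window without TTTGAA may still hold one. CDC25B was also the member whose level went least with the others, at a mean correlation of -0.08. CDC25C, MYBL2, CENPE and KIF2C have no match either, and their mean correlations with the other members were 0.59, 0.52, 0.39 and 0.59. A link of motifs to levels was not tested. The windows are chr5:69167000-69167149 for CCNB1, chr15:59104996-59105145 for CCNB2, chr16:23678739-23678888 for PLK1, chr5:138178962-138179111 for KIF20A, chr5:163460482-163460631 for HMMR and chr20:3786801-3786950 for CDC25B.
CCNB1: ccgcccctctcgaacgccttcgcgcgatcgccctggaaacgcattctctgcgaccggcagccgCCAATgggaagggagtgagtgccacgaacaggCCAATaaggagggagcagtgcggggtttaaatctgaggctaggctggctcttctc
CCNB2: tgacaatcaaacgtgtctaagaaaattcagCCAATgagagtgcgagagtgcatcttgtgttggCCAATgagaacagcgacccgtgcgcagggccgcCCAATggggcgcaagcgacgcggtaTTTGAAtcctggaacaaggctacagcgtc
PLK1: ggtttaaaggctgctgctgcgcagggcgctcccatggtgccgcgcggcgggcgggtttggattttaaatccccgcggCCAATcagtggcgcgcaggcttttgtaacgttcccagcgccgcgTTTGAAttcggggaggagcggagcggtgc
KIF20A: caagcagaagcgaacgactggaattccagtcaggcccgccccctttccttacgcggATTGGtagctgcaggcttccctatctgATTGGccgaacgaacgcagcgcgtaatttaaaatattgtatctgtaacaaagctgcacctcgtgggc
HMMR: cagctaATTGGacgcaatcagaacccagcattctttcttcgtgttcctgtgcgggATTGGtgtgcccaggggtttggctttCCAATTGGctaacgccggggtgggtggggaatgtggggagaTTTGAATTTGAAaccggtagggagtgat
CDC25B: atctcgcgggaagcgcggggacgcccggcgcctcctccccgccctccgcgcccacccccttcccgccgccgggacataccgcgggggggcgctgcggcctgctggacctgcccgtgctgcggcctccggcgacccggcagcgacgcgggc
The CCAAT boxes of CCNB1 start 87 and 55 bases before its RefSeq start site. Those of CCNB2 start 120, 87 and 54 bases before its RefSeq start site within the printed stretch. The RefSeq start sites of the printed members lie inside the gene spans of GENCODE, so these distances are not from the GENCODE gene starts. In CCNB2 and PLK1 the CHR core starts 29 bases before the start site. HMMR holds 2 CHR cores in direct repeat, at 28 and 22 bases before the start, and in the stretch CCAATTGG its CCAAT box is matched on both strands. A match is a description of letters, and no binding was measured in these tumours.

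**Figure D1:**
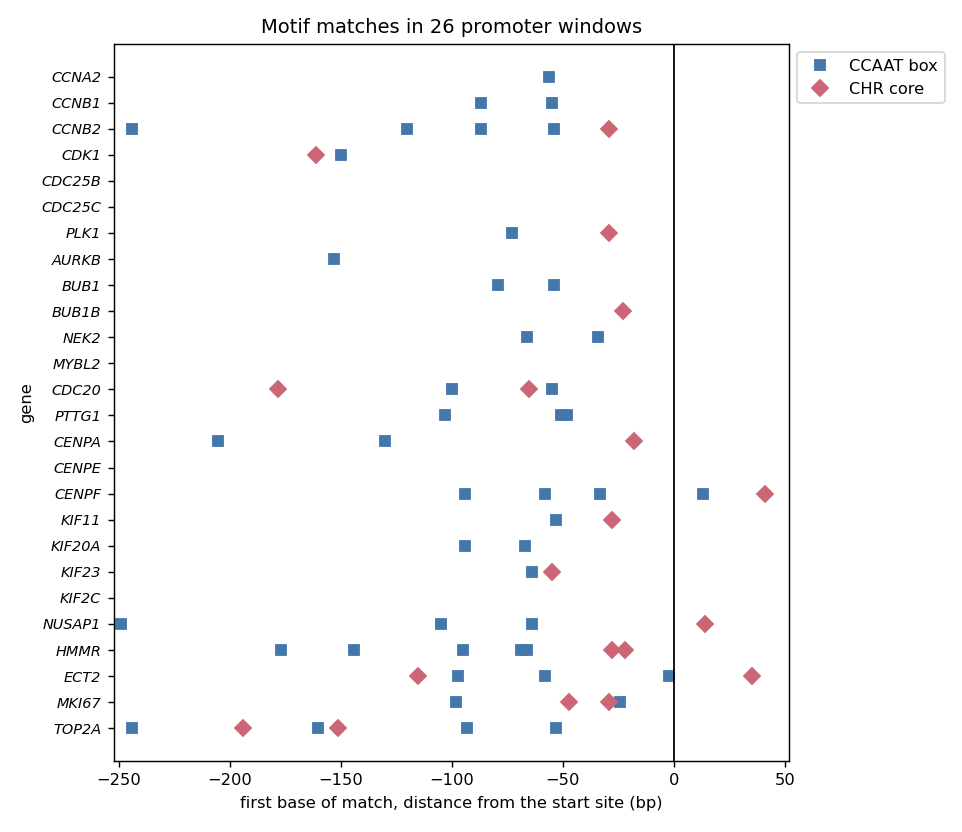
Positions of CCAAT boxes (squares) and CHR cores (diamonds) in the promoter windows of the 26 members with a RefSeq entry, 1 gene per line, with the distance of the first base of each match from the annotated start in bp on the x axis. Most matches lie within the last 150 bases before the start, and CDC25B, CDC25C, MYBL2, CENPE and KIF2C have no match.

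Totals ran from 13716286 to 32271031 expected counts per library, and the lowest count of any member in any library was 87. Levels are given as CPM, a gene's share of its library's counts on a common scale, corrected by TMM, a factor that sets the bulk of genes level between libraries. DDR1 itself held 138, 109.8, 210.4 and 149 CPM in the control tumours and 159, 343, 427 and 809.9 CPM in those with DDR1, in the order of replicates 1 to 4. The log2 fold change of DDR1 was 1.52 (SE 0.43), with an unadjusted p of 0.00612 and an adjusted p of 0.9998 in edgeR. An exact permutation test, two-sided, gave p = 0.0571 for it, and 70 orderings allow none under 0.0286. The library labelled DDR1 replicate 1 lay inside the control range, so the members' median and counts are also given without it. Of the epithelial markers KRT17 was the most abundant, at a mean of 2581 CPM, whereas UPK1A, UPK2, UPK3A and KRT20, markers of differentiated urothelium, were below the filter on low counts and UPK1B, which passed it, held at most 1.89 CPM. Markers of lymphoid cells (7 of 7) and erythroid cells (5 of 5) were below the filter as well, with HBB at 0 in all 8 libraries. The tumours grew in mice and the counts are of human genes, so this does not show that such cells were absent.

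No member passed the test between DDR1 and control tumours. In the edgeR quasi-likelihood fit over all genes 0 of 32 members had an adjusted p under 0.05, where 0 of 18973 genes (0%) did, and 0 members had an unadjusted p under 0.05, against a background of 4.17%. DESeq2 gave 0 members at an adjusted p under 0.05 (background 0.0825%, or 15 genes) and 0 at an unadjusted one (background 4.85%). The fits by limma-voom and limma-trend also gave 0 and 0, but no share over all genes is given for them. Of the 32 members 21 had a fitted log2 fold change below 0, where 50.5% of all genes did, and the median over members was -0.10, against 0.00 over all genes. For 0 members did the 4 control and 4 DDR1 libraries lie apart, where 2.4% of all genes did. The smallest p-values belonged to CENPA, CCNA2, CDC25B and CENPE. A p that misses the threshold does not show equal levels, and each interval is given as a line in the plot of fitted estimates.

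The sign of that median rested on single libraries, and for 19 of 32 members the sign of the estimate turned when 1 library was left out. Without DDR1 replicate 3 the median was 0.05 and 12 members were below 0 (background 50.7%). Without the library labelled DDR1 replicate 1 it was -0.22 and 25 members were below 0 (background 51.6%). In the fit without that library CDK1, BUB1 and CENPA had an unadjusted edgeR p under 0.05 (background 4.76%), all lower with DDR1. Without control replicate 3 the members under 0.05 were CCNA2 and CENPE, lower, and CDC25B, higher (background 4.98%), and without DDR1 replicate 4 FOXM1 alone, lower (background 2.56%). The controls by lane gave opposite signs. Without the lane 7 controls the median was 0.10, with 10 members below 0 (background 49%) and NUSAP1 under 0.05, higher (background 5.61%). Without the controls that name no lane it was -0.20, with 27 below 0 (background 46.6%) and CCNA2, CENPE and CDC25B under 0.05 (background 2.97%). None of these passed after adjustment over all genes. Of 30 ribosomal protein genes, 30 had estimates above 0, with a median of 0.38. Among them 10 had an unadjusted edgeR p under 0.05, all higher (background for higher 1.93%). Without the library labelled DDR1 replicate 1 these were 30, 0.34 and 6, all higher (background in both directions 4.76%, for higher alone not computed). Their part in the members' levels was not tested.

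**Figure D2:**
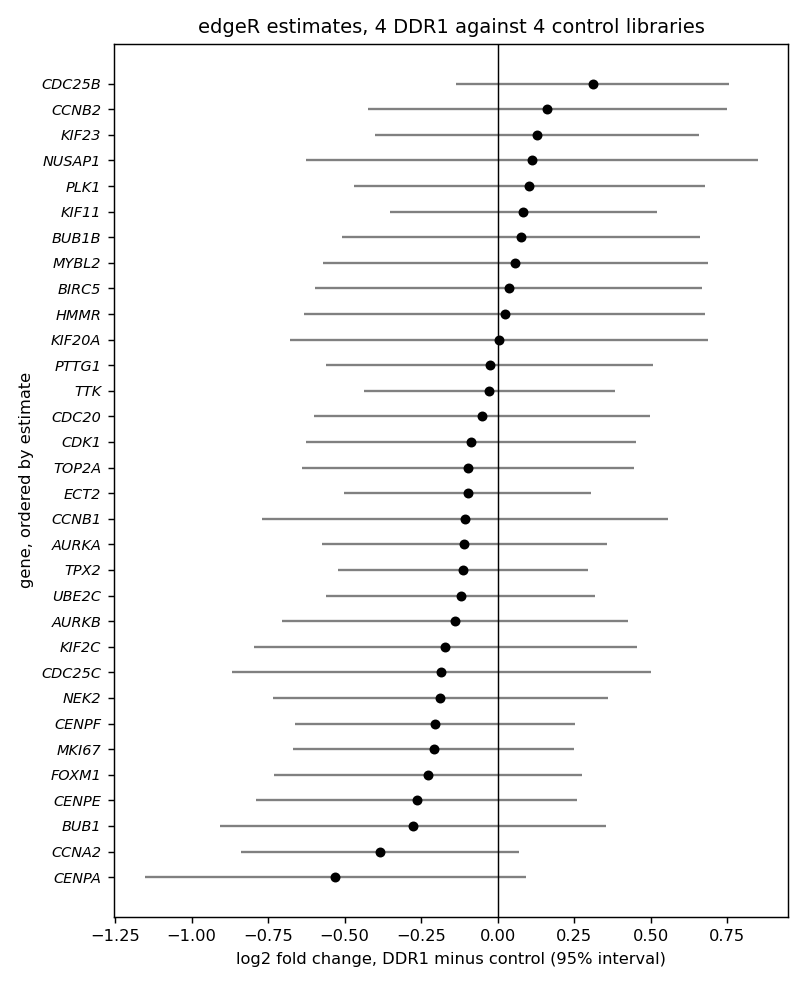
Fitted log2 fold change of each of the 32 members, DDR1 minus control, from edgeR (points) with its 95% interval (lines), ordered by estimate, for 4 libraries per group. Estimates run from -0.53 for CENPA to 0.31 for CDC25B, and every interval includes 0.

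The engine of mitotic entry is cyclin B bound to CDK1. CDK1, the kinase itself (ENSG00000170312, chromosome 10, 60778331 to 60794852, plus strand, GRCh38), held 42.7, 45.9, 52.3 and 46.2 CPM in the control tumours and 68.4, 37.96, 30.4 and 39.4 CPM in those with DDR1, in the order of replicates 1 to 4. The controls lay close together, with the library labelled DDR1 replicate 1 above all of them and the other 3 DDR1 libraries below. The means were 46.8 ± 3.996 CPM in control and 44.04 ± 16.7 CPM in DDR1 tumours (SD, n = 4 each), and the log2 fold change was -0.09 (SE 0.24, 95% interval -0.63 to 0.45) with all libraries. With 1 library left out it ran from -0.38 without the library labelled DDR1 replicate 1 to 0.06 without DDR1 replicate 3, so its sign rested on 1 library. CCNB1, cyclin B1 (ENSG00000134057, chromosome 5, 69167010 to 69178245, plus strand), held 95.7, 61.2, 45.4 and 84.4 CPM in the control tumours and 97.2, 62.9, 41.8 and 64.3 CPM in those with DDR1. Replicate 3 was lowest in each group, and the groups covered nearly the same range. CCNB2, cyclin B2 (ENSG00000157456, chromosome 15, 59105078 to 59125045, plus strand), held 25.9, 28.5, 15.9 and 19.4 CPM in the control tumours and 27.8, 24.3, 15.98 and 32.4 CPM in those with DDR1, and the interval of its log2 fold change was -0.42 to 0.75. CCNA2, cyclin A2 (ENSG00000145386, chromosome 4, 121816444 to 121823933, minus strand), which acts from S phase into G2, held 37.8, 42.4, 25.7 and 32.1 CPM in the control tumours and 31.1, 28.3, 20.5 and 25.9 CPM in those with DDR1. The groups overlapped, and the log2 fold change of -0.38 (SE 0.20, edgeR unadjusted p = 0.0887, adjusted p = 0.9998) stayed between -0.50 and -0.27 with 1 library left out, and was -0.10 without the lane 7 controls.

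CDC25B and CDC25C are phosphatases that remove the inhibitory phosphates from CDK1. CDC25B (ENSG00000101224, chromosome 20, 3786772 to 3806121, plus strand) held 105, 115, 171 and 124 CPM in the control tumours and 185, 126, 153 and 174 CPM in those with DDR1, with a log2 fold change of 0.31 (SE 0.20, edgeR unadjusted p = 0.151). It had the lowest mean correlation with the other members over the 8 libraries (-0.08), and in both libraries numbered 3, where most members were low, it lay above its own mean. CDC25C (ENSG00000158402, chromosome 5, 138285265 to 138338355, minus strand) had the lowest level per length of all members, 2.35 ± 0.633 CPM per kilobase of exon (SD over 8 libraries). It held 10.4, 8.27, 5.17 and 9.598 CPM in the control tumours and 9.43, 7.402, 4.41 and 8.1 CPM in those with DDR1. Within each group its libraries fell in the same order as those of CCNB1, with replicate 3 lowest.

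On the log2 scale 21 of 32 members had a larger standard deviation among DDR1 than among control libraries, where 49.3% of all genes did, and this difference in spread was not tested. Among the mitotic kinases the DDR1 libraries were more spread than the controls for all 7 genes. PLK1 (ENSG00000166851, chromosome 16, 23677656 to 23690367, plus strand), which acts from centrosome maturation to cytokinesis, held 34.3, 37.7, 37.03 and 29.3 CPM in the control tumours and 34.8, 28.03, 26.9 and 59.05 CPM in those with DDR1, with DDR1 replicate 4 above every other library. AURKA (ENSG00000087586, chromosome 20, 56369389 to 56392337, minus strand), the spindle pole kinase, held 73.2, 72.6, 70.3 and 68.5 CPM in the control tumours and 95.8, 57.3, 48.2 and 62.6 CPM in those with DDR1. Its controls lay within a narrow band (SD 2.19 CPM), whereas the DDR1 libraries lay on both sides of them (SD 20.7 CPM). The log2 fold change of AURKA was -0.11, and turned from -0.34 when the library labelled DDR1 replicate 1 was left out to 0.02 when DDR1 replicate 3 was. AURKB (ENSG00000178999, chromosome 17, 8204733 to 8210600, minus strand), the kinase of the chromosomal passenger complex, held 21.99, 17.1, 21.96 and 17.8 CPM in the control tumours and 22.6, 15.3, 10.97 and 22.8 CPM in those with DDR1, with DDR1 replicate 3 lowest. BUB1 (ENSG00000169679, chromosome 2, 110637698 to 110678114, minus strand), a checkpoint kinase of the kinetochore, held 39.2, 41.7, 38.4 and 31.7 CPM in the control tumours and 51.2, 30.1, 19.8 and 23.6 CPM in those with DDR1. In BUB1 the library labelled DDR1 replicate 1 was the highest and the other 3 DDR1 libraries were below every control, and the log2 fold change was -0.28 over all libraries, -0.62 without that library and -0.11 without DDR1 replicate 3. TTK (MPS1; ENSG00000112742, chromosome 6, 80003887 to 80042527, plus strand), which starts the spindle checkpoint, was the steadiest member, with 33.9, 42.1, 32.5 and 31.99 CPM in the control tumours and 44.1, 29.4, 28.9 and 35.6 CPM in those with DDR1 and a standard deviation of 0.22 in log2 CPM over the 8 libraries. BUB1B, the checkpoint protein BUBR1, ranged from 25.6 to 53 CPM and NEK2, a centrosome kinase, from 12.2 to 24 CPM, and both were lowest in DDR1 replicate 3.

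The 2 transcription factors differed in which library was lowest. MYBL2 (B-MYB; ENSG00000101057, chromosome 20, 43667019 to 43716496, plus strand), which with the MuvB complex opens expression of late cell cycle genes, held 37.9, 38.8, 39.4 and 38.2 CPM in the control tumours and 41.3, 34.4, 21.5 and 63.4 CPM in those with DDR1. The means were 38.6 ± 0.676 CPM in control and 40.1 ± 17.5 CPM in DDR1 tumours (SD, n = 4 each), so the means were close while every DDR1 library lay outside the narrow range of the controls, replicates 2 and 3 below and replicates 1 and 4 above. FOXM1 (ENSG00000111206, chromosome 12, 2857681 to 2877155, minus strand), the activator of G2 genes, held 59.4, 67.8, 57.6 and 74.7 CPM in the control tumours and 43, 46.98, 48.4 and 83.2 CPM in those with DDR1. In FOXM1 the library labelled DDR1 replicate 1 was the lowest of all 8, although it was the highest for 14 members, and DDR1 replicate 4 was the highest. The log2 fold change of FOXM1 was -0.23 (SE 0.23), and ran from -0.48 without DDR1 replicate 4 to -0.12 without the library labelled DDR1 replicate 1.

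Genes of the exit from mitosis gave close group means. CDC20 (ENSG00000117399, chromosome 1, 43358955 to 43363203, plus strand), the APC/C activator that the checkpoint restrains, held 61.5, 46.5, 39.2 and 52.9 CPM in the control tumours and 58.7, 39.2, 31.9 and 63.4 CPM in those with DDR1 (interval of the log2 fold change -0.60 to 0.50). UBE2C (ENSG00000175063, chromosome 20, 45812576 to 45816957, plus strand), the ubiquitin-conjugating enzyme that works with the APC/C, held 59.5, 72.2, 71.8 and 59.95 CPM in the control tumours and 80.2, 52.99, 44.6 and 64.6 CPM in those with DDR1. For UBE2C the library labelled DDR1 replicate 1 lay above all controls, DDR1 replicates 2 and 3 below them and DDR1 replicate 4 among them. PTTG1, securin, the APC/C substrate that holds back separase, was at 40.2 ± 12.1 CPM in control and 39.4 ± 7.66 CPM in DDR1 tumours (SD, n = 4 each), and near-identical intronless copies in the genome make its counts uncertain.

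Centromere genes held the lowest estimate. CENPA (ENSG00000115163, chromosome 2, 26764289 to 26801067, plus strand), the histone H3 variant that marks the centromere, held 8.36, 6.14, 7.54 and 7.24 CPM in the control tumours and 7.64, 4.52, 3.52 and 4.55 CPM in those with DDR1. Of the DDR1 libraries the one labelled replicate 1 lay in the control range and the other 3 lay under it. The log2 fold change was -0.53 (SE 0.28, edgeR unadjusted p = 0.0873, adjusted p = 0.9998), with -0.80 without that library and -0.39 without DDR1 replicate 3. CENPE (ENSG00000138778, chromosome 4, 103105806 to 103198409, minus strand), a kinesin that moves chromosomes to the spindle equator, held 89.1, 107, 47.7 and 86.7 CPM in the control tumours and 79.1, 71.2, 61.6 and 63.05 CPM in those with DDR1, with control replicate 3 lowest. Its estimate was -0.27, with -0.45 without control replicate 3, -0.11 without control replicate 2, the highest library, and 0.06 without the lane 7 controls, where the sign turned. CENPF, which joins the kinetochore in G2, was at 267 ± 56.9 CPM in control and 231 ± 40.5 CPM in DDR1 tumours (SD, n = 4 each). BIRC5 (survivin), a passenger protein and inhibitor of apoptosis, was at 33.6 ± 2.801 CPM in control and 34.5 ± 13.9 CPM in DDR1 tumours (SD, n = 4 each), with its lowest value in DDR1 replicate 3 and its highest in the library labelled DDR1 replicate 1.

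Kinesins and spindle factors varied more among controls than among DDR1 libraries in 6 of 8 genes. KIF20A (MKLP2; ENSG00000112984, chromosome 5, 138178719 to 138187715, plus strand), which carries the passenger complex to the midzone, held 63.9, 66.8, 24.1 and 57.7 CPM in the control tumours and 68.7, 52.4, 40.7 and 51.2 CPM in those with DDR1. Control replicate 3 lay far under all other libraries, and the group means were 53.1 and 53.2 CPM. NUSAP1 (ENSG00000137804, chromosome 15, 41332694 to 41381050, plus strand), a microtubule bundler, varied most over the 8 libraries (standard deviation 0.51 in log2 CPM), with 71.95, 118, 47.3 and 44.5 CPM in the control tumours and 73.03, 89.2, 50.01 and 92.95 CPM in those with DDR1. KIF11 (Eg5), the motor that separates the spindle poles, ranged from 66.3 to 112 CPM, KIF23 (MKLP1), a midzone motor, from 50.96 to 92.8 CPM, and KIF2C (MCAK), a microtubule depolymerase, from 39.4 to 92.9 CPM. TPX2 (ENSG00000088325, chromosome 20, 31739271 to 31801805, plus strand), the activator of AURKA at the spindle, held 182, 196, 173 and 183 CPM in the control tumours and 208, 142, 132 and 199 CPM in those with DDR1. As for AURKA, the controls were close together and the DDR1 libraries lay on both sides of them. HMMR, a spindle assembly factor, ranged from 16.1 CPM in control replicate 3 to 38.5 CPM in the library labelled DDR1 replicate 1. ECT2 (ENSG00000114346, chromosome 3, 172750682 to 172821474, plus strand), the exchange factor that starts furrow ingression, held 93.8, 104, 64.2 and 89.3 CPM in the control tumours and 90.1, 78.4, 68.8 and 90.8 CPM in those with DDR1, with replicate 3 lowest in each group.

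MKI67 (ENSG00000148773, chromosome 10, 128096659 to 128126385, minus strand), the Ki-67 protein that coats mitotic chromosomes and is the routine pathology marker of proliferation, held 599, 730.0, 795 and 761 CPM in the control tumours and 719.6, 490.4, 507 and 778 CPM in those with DDR1 (log2 fold change -0.21, SE 0.20, edgeR unadjusted p = 0.331). With 1 library left out the estimate of MKI67 ran from -0.32 without DDR1 replicate 4 to -0.11 without DDR1 replicate 2. TOP2A (ENSG00000131747, chromosome 17, 40388516 to 40417950, minus strand), the topoisomerase that disentangles sister chromatids, held 346, 391, 301 and 283 CPM in the control tumours and 448, 293, 202 and 293 CPM in those with DDR1. The pair did not order the libraries alike, since MKI67 was highest in control replicate 3, which lay under the mean of its group for TOP2A. On the scale of CPM per kilobase of exon, the members with the highest levels were MKI67 at 52.5 ± 9.59, TOP2A at 49.6 ± 11.6, UBE2C at 49.2 ± 8.91 and TPX2 at 49.02 ± 7.54 (SD over 8 libraries), and these 4 means differed by less than their SDs. CDC25B followed at 33.4 ± 7.09, and the lowest were CDC25C, CENPA at 3.12 ± 0.901 and BUB1 at 5.71 ± 1.697. Exon lengths are unions over all GENCODE transcripts, so a gene with long rare exons is set too low.

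**Figure D3:**
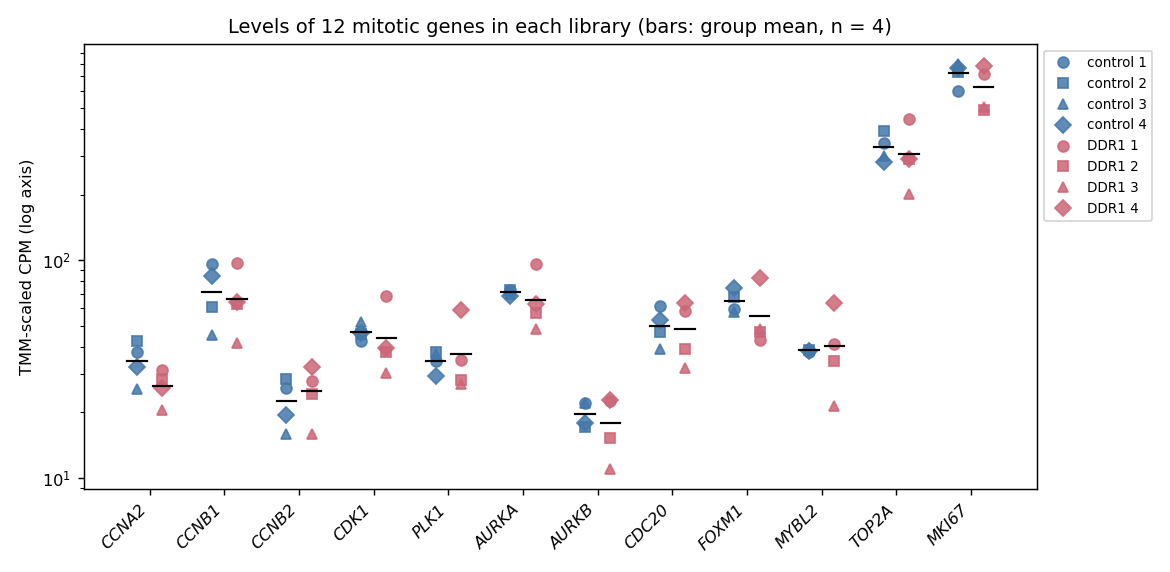
TMM-scaled CPM of 12 members in each of 4 control (blue) and 4 DDR1 (red) libraries on a log axis, 1 symbol shape per replicate number (which only names a library), with bars at the group means. AURKA and MYBL2 show tightly grouped controls inside a wide DDR1 group, while for CCNB1 both groups span nearly the same range.

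While no member passed the test between groups, the members moved together from library to library. Each member was centred on its mean log2 CPM over the 8 libraries and the deviations were averaged. The mean deviation was 0.17, 0.21, -0.17 and -0.01 in control tumours 1 to 4 and 0.29, -0.14, -0.49 and 0.14 in DDR1 tumours 1 to 4. Both extremes lay in the DDR1 group. In DDR1 replicate 3, 31 of 32 members were below their own mean (CDC25B was the exception) and 21 had their lowest level there, where 12.7% of all genes did. In the library labelled DDR1 replicate 1, 30 members were above their own mean and 14 had their highest level there, against 13.7% of all genes. The ratio of a member's highest to its lowest library ran from 1.53 (TTK) to 2.95 (MYBL2). Over the 496 pairs of members the median Pearson correlation across the 8 libraries was 0.56, with 93.3% of pairs above 0, where the median over all pairs of tested genes was 0.00. After each group was centred on its own mean it was 0.58, against 0.00 for all genes. The leading principal component of the members held 54.5% of their variance, and the next held 16.5%. All points of these correlations share their libraries, scaling and depth, and they are given as a description.

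**Figure D4:**
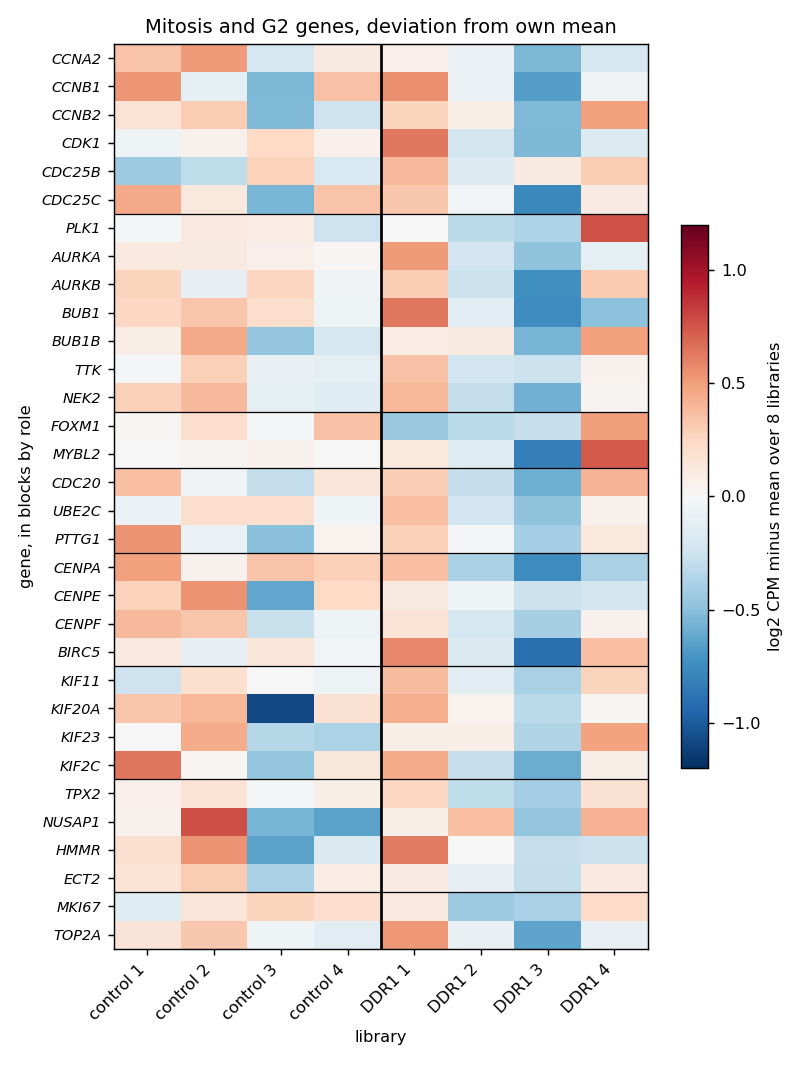
Deviation of each member's log2 CPM from its own mean over 8 libraries (red above, blue below), members in rows in blocks by role and libraries in columns, controls left of the line. The column of DDR1 replicate 3 is low in all but CDC25B, and in control replicate 3 a part of the members is low, led by KIF20A, while CENPA, CDC25B, MKI67 and AURKB are high.

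Control replicate 3 split the members. Deviations from a member's own mean log2 CPM in this library were -1.08 for KIF20A, -0.64 for HMMR, -0.63 for CENPE, -0.55 for NUSAP1, -0.54 for CCNB1 and -0.50 for PTTG1. On the other side they were 0.34 for CENPA, 0.28 for CDC25B, 0.27 for MKI67, 0.26 for AURKB and 0.24 for CDK1. In all 14 members were more than 0.25 below and 4 more than 0.25 above, where 28.4% of all genes were more than 0.25 below. The share of all genes more than 0.25 above was not computed. Of all genes 19.0% had their highest level in this library and 16.4% their lowest, against 1 and 6 of the members. Many genes outside the members were thus extreme there too. By role, kinesins averaged -0.47 and spindle and cytokinesis factors -0.40 in this library, whereas mitotic kinases averaged -0.01 and the pair of MKI67 and TOP2A 0.11. DDR1 replicate 3 showed no such split, since every role lay between -0.57 (centromere and passenger proteins) and -0.36 (spindle factors).

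The list of DNA replication and S phase genes, which shares no gene with the members, was set beside them in the same libraries. Its mean deviation was 0.10, 0.08, 0.07 and 0.09 in control tumours 1 to 4 and 0.34, -0.20, -0.61 and 0.12 in DDR1 tumours 1 to 4. In the DDR1 group it followed the mitotic members closely, with 39 of 41 S phase genes above their own mean in the library labelled DDR1 replicate 1 and all 41 below it in DDR1 replicate 3. Among controls the standard deviation of the S phase mean was 0.01, against 0.17 for the mitotic members. Mitotic members minus S phase genes came to -0.25 in control replicate 3, the lowest of the 8, and to between -0.10 and 0.13 in the other 7. Against control, 34 of 41 S phase genes had estimates below 0 with a median of -0.14, and 4 had an unadjusted p under 0.05 in edgeR, all lower (background for lower 2.24%). Without the library labelled DDR1 replicate 1, 39 were below 0 with a median of -0.25, and 5 had an unadjusted p under 0.05 (background 4.76%). The smallest p-values were those of DTL, a ubiquitin ligase adaptor of S phase, at 41.6 ± 5.48 CPM in control and 26.7 ± 7.43 CPM in DDR1 tumours (SD, n = 4 each), and RRM2, a ribonucleotide reductase subunit, at 155 ± 23.6 CPM in control and 112 ± 19.6 CPM in DDR1 tumours (SD, n = 4 each), each with an edgeR adjusted p of 0.9998.

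**Figure D5:**
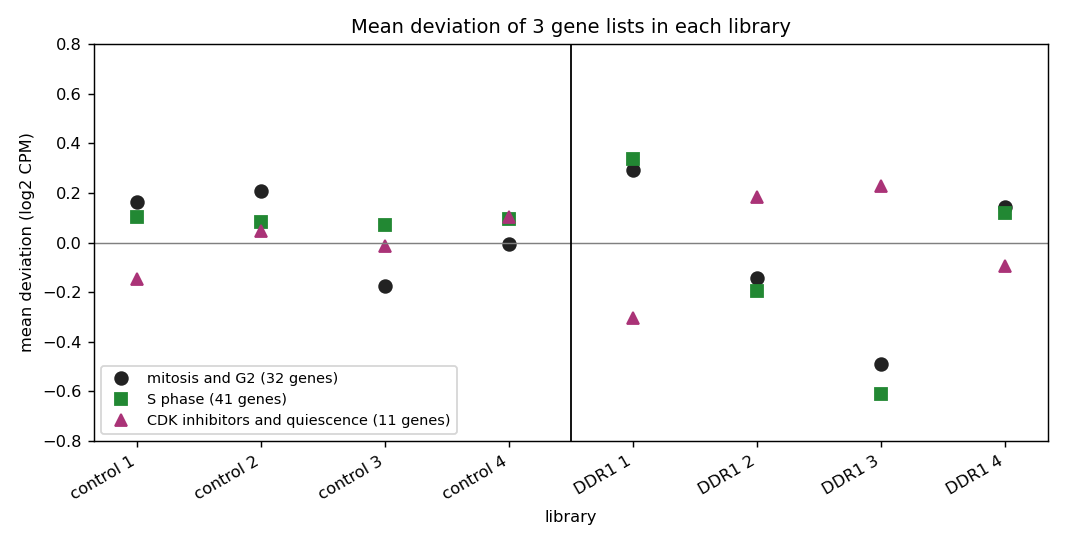
Mean deviation in log2 CPM of the 32 mitosis and G2 genes (circles), 41 S phase genes (squares) and 11 CDK inhibitor and quiescence genes (triangles) in each library, each gene centred on its mean over 8 libraries. Mitotic and S phase genes lie together in the 4 DDR1 libraries and part in control replicate 3, at -0.17 and 0.07.

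Other genes of the pathway, in lists that do not share the members, gave 0 calls at an adjusted p under 0.05 in edgeR. Pairs of means are given for control and DDR1 tumours in CPM with SD, n = 4 each. Of 31 further kinetochore and checkpoint genes 22 had estimates below 0, with a median of -0.10, and 1 had an unadjusted p under 0.05, namely CENPO, an inner kinetochore protein, at 28.2 ± 6.01 and 19.4 ± 2.25. SGO1, a protector of centromere cohesion, had the next smallest p at 14.9 ± 2.59 and 11.2 ± 2.14. Of 21 passenger, midzone and cytokinesis genes 14 were below 0, with a median of -0.13 and 0 at an unadjusted p under 0.05. The smallest p-values there were those of CDCA8 (borealin) at 31.7 ± 5.805 and 24.8 ± 2.28 and KIF14, a midbody kinesin, at 61.03 ± 6.93 and 49.2 ± 10.1. Among 15 condensin and cohesin genes 9 were below 0, and NCAPD2, a condensin subunit, had an unadjusted p under 0.05, at 149 ± 18.97 and 114 ± 7.398. STAG2, a cohesin subunit, was next at 240.3 ± 36.2 and 294 ± 9.44. Among APC/C subunits and regulators 10 of 17 were below 0, the median was -0.04, and their mean deviation stayed between -0.18 and 0.12 over the 8 libraries. There ANAPC15 and ANAPC4 had the smallest p-values, with log2 fold changes of 0.46 and -0.36. The 16 brakes and aids of mitotic entry had 11 below 0 and a median of -0.11. The smallest p-values among them were those of CDC25A, the other CDC25 phosphatase, at 14 ± 3.79 and 9.26 ± 2.36, and HJURP, the chaperone of CENPA, at 31.8 ± 4.53 and 24.4 ± 11.4. Genes of the DREAM and MuvB complexes had a median of -0.01 over 12 genes, with E2F4 at -0.30 and RBL1 at -0.25 as log2 fold changes. The 11 CDK inhibitor and quiescence genes had a median of 0.04, with BTG1, an antiproliferative factor, at -0.34, and lay on the other side of the members in the extreme libraries, at -0.31 in the library labelled DDR1 replicate 1 and 0.23 in DDR1 replicate 3. CDKN1A (p21), a brake on cyclin-CDK activity, held 67.8, 41.4, 126 and 87.1 CPM in the control tumours and 34.9, 59.4, 77.7 and 33.8 CPM in those with DDR1, and control replicate 3, the lowest for KIF20A, was the highest for CDKN1A.

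The 10 tested genes outside the members whose log2 CPM followed the members' mean most closely over the 8 libraries were BUD13, LMNB1, KIF4A, COCH, KRT18, PABPC4L, BANK1, RFC5, PARP1 and CRACR2B, with Pearson correlations from 0.96 for BUD13 to 0.92 for CRACR2B. KIF4A, a chromosome-bound kinesin, and RFC5, a subunit of the clamp loader of replication, were in the cell cycle lists. The median correlation with the members' mean was 0.72 for passenger, midzone and cytokinesis genes and for S phase genes, 0.62 for kinetochore genes, 0.25 for APC/C subunits and -0.45 for CDK inhibitors.

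Markers of other cells, depth, and ribosomal protein, handling stress and mitochondrial genes were read in the libraries at the extremes. The tumours grew in mice and the counts are of human genes, so these markers do not measure how many mouse cells were present. The library labelled DDR1 replicate 1, highest for the members, had the lowest summed fibroblast markers (10 markers, 7 of them tested), 13.7 CPM, and DDR1 replicate 3, lowest for the members, held 70.1 CPM. The sum was 25.6 to 84.5 CPM in controls and 13.7 to 70.1 CPM in the DDR1 group, and no marker of the list was at 0 in all libraries. Control replicate 3 went against that order, with 25.6 CPM of fibroblast markers and low members. So did control replicate 1, with 58.7 CPM and members at 0.17 in mean deviation. Control replicate 2 held 34.8 CPM with members at 0.21, and control replicate 4 had the highest sum, 84.5 CPM, with members at -0.01. DDR1 replicates 2 and 4 went with the order, at 64.1 and 18.8 CPM with members at -0.14 and 0.14. Summed epithelial and urothelial markers were 7703 CPM in the library labelled DDR1 replicate 1 and 5820 CPM in DDR1 replicate 3, with a range of 3403 to 7892 CPM in controls and 5820 to 9335 CPM in the DDR1 group. Endothelial markers (7, of which 3 tested) summed to 8.70 to 56.4 CPM in controls and 9.28 to 76.5 CPM in the DDR1 group, and myeloid markers (9, of which 4 tested) to 18.5 to 56.7 and 34.1 to 98.3 CPM. In the library labelled DDR1 replicate 1 and in DDR1 replicate 3 the endothelial sums were 9.28 and 34.96 CPM. The myeloid sums there were 34.1 and 44.6 CPM. The highest endothelial sum was in DDR1 replicate 4, with members at 0.14, and the highest myeloid sum in DDR1 replicate 2, with members at -0.14. Totals were 32271031 expected counts in the library labelled DDR1 replicate 1 and 26549138 in DDR1 replicate 3. Ribosomal protein genes were at 0.39 and -0.04 in mean deviation in these 2 libraries, handling stress genes at 0.05 and -0.32, and mitochondrially encoded genes at -0.31 and 0.63. None of these lists measures RNA quality directly. The most abundant markers were COL1A1 for fibroblasts at a mean of 11.03 CPM, CDH5 for endothelium at 20.96, CD68 for myeloid cells at 24.48, CD8A for lymphoid cells at 0.401 and ALAS2 for erythroid cells at 0.108 CPM. The part of these differences in the levels of the members was not tested.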

How the data were processed

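Poly(A) RNA of tumours was sequenced from both ends in 4 control and 4 DDR1 libraries. Per the submitters' processing notes, RSEM 1.3.1 and STAR 2.7.5 were used, with FastQC 0.11.9 and Trim Galore 0.6.4 also named, on GRCh38. No source used here gives the annotation release or says if mouse reads were removed. The authors deposited RSEM expected counts for 58302 genes, not whole in 26.5% of values above 0 and rounded here, and a table of TMM-scaled log2 values for 22480 genes, used in 1 alternative. GENCODE release 29 matched 58039 identifiers. Depth was 13716286 to 32271031 counts per library, and no 2 libraries agreed within sampling noise.

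Genes were filtered by filterByExpr (minimum count 10), which kept 18973, and tested without covariates by quasi-likelihood in edgeR (4.0.16, under R 4.3.3), adjusted by Benjamini-Hochberg over all of them. SE is the log2 fold change divided by the root of F. A prior count of 2 was added for log2 CPM. The test was checked on simulated data with planted changes far larger than any estimate of a member. That check does not speak to the power to find small changes. Members and lists were chosen with earlier results of these data known. All members are named, and shown per library are 12 core genes and those with the smallest p-values, highest or lowest levels per kilobase, or largest or smallest spread, with the 2 smallest p-values of each other cell cycle list. Counts of 8 members that overlap another tested gene are uncertain, since no strand marking is stated: CCNA2, CDC25C, BUB1B, FOXM1, CENPA, KIF20A, KIF23 and KIF2C. The 20 alternatives were 3 scalings, DESeq2 (1.42.0), limma-voom and limma-trend (limma 3.58.1), 2 filters, protein-coding genes alone, each library left out, each pair of controls by lane left out, and libraries with a shared title prefix summed (DDR1 2 to 4; controls 3 and 4).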

Additional observations from a re-analysis of the deposited data

Results flagged for a closer look

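KIF20A in the controls was flagged because 1 library stood apart: control replicate 3 (24.1 CPM, against 57.7 to 66.8 in the other 3) lay at a gap of 0.857 of the group's range on the log2 scale, over Dixon's critical value of 0.829 for 4 samples. Of 66 groups examined (32 members and their mean, in 2 groups) 1 was flagged, and chance flags about 5% of groups.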

How the results depend on the processing

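Over the 20 alternatives 0 members were called. DESeq2 called 15 genes of all, where edgeR called 0, and the cause was not tested. DDR1 was higher in all 20, with a log2 fold change of 1.31 without the lane 7 controls, where its unadjusted p from the edgeR model was 0.0653. That fit has fewer samples. With 1 library left out, DDR1 ran from 1.05 to 1.79, genes called from 0 to 0, and the members' median from -0.22 to 0.05. With libraries of a shared prefix summed the median was 0.01. The lowest member count was 87, and 4 libraries a group limit the precision. No paired analysis was possible because the labels give no replicate numbers that controls and DDR1 libraries share.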
